A study of Mus musculus with 16 samples.

Results

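The GIMAP family (GTPases of immunity-associated proteins) is a set of small GTP-binding proteins found mostly in lymphocytes. Its 8 members in the count matrices, Gimap1, Gimap3, Gimap4, Gimap5, Gimap6, Gimap7, Gimap8, and Gimap9, were chosen by name out of 32285 genes. They were followed in cells with a UMI (unique molecular identifier, 1 counted RNA molecule) of Cd8a or Cd8b1 in 9 groups of CD8+ T cells, and in gated CD8 T, CD4 T, NK, B, and myeloid cells of naive spleen and rejecting kidney. Accepted samples were DBA/2J kidneys transplanted into wild-type B6 (C57BL/6J) recipients and the recipients' spleens at 1, 3, and 24 weeks. Rejecting samples were B6 kidneys in DBA/2J recipients and the recipients' spleens at 1 week, although the labels list C57BL/6J for every sample, and naive spleen served as the untreated group. All mice were male and received no other treatment named in the labels, CD45+ cells were sorted before droplet 3′ RNA-seq, and the library tags in the cell barcodes (3 at 1 week, 5 at 3 weeks, 3 at 24 weeks, 2 and 3 in rejecting kidney and spleen, and 5 in naive spleen) were taken as the replicates.

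GIMAP proteins share an AIG1-type GTPase domain related to that of septins, and they are known for their part in the survival and homeostasis of mature lymphocytes. Gimap5 sits on lysosomal membranes and its loss causes T cell lymphopenia in rodents, and Gimap3 is its close relative. Gimap1 is needed for mature T and B cells, Gimap4 has been linked to lymphocyte apoptosis, Gimap6 binds the autophagy protein Gabarapl2, Gimap7 can pair with other members and stimulate GTP hydrolysis, and Gimap8 is the largest member, with several GTPase domains.

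The 9 CD8 matrices held 56585 cells with a Cd8a or Cd8b1 UMI out of 72639, in 32 libraries of 153266 to 22782080 UMIs in such cells. The share of cells with such a UMI differed, from 5262 of 11913 cells in 1-week spleen to all 726 in rejecting spleen, so the other cells were left out. T cell markers were present throughout, with a sum of Cd3d, Cd3e, and Cd3g of 1562 to 1681 CPM (UMIs of a gene per 1000000 UMIs of all genes) in the lowest group, 3-week spleen, whereas Cd4 summed to at most 18.6 CPM in any library. In the 24-week libraries the kidney parenchyma RNA went against the labels, since 20 such genes summed to 6.83 to 9.37 CPM in those labelled spleen and to 0.35 to 1.22 CPM in those labelled kidney, against 9.02 to 16.9 in 3-week kidney and 0 to 2.36 in 3-week spleen, and Gpx3, an abundant transcript of kidney tubules, stood at 1.47 CPM in the former and at 0 in the latter. Part of that list is not listed in the 1- and 3-week spleen matrices, and the 24-week groups are called below by their labels only. The rejecting spleen library R7S2 had 56 cells and a myeloid marker sum of 698 CPM, against 23.9 in R7S1 and 237 in R7S3. No 2 of the 32 libraries shared more than 1.79% of the smaller one's barcodes.

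In the GRCm38 annotation (GENCODE M21), the members lie side by side within 123618 bp of chromosome 6, from 48647234 to 48770851, in the order Gimap8, Gimap9, Gimap4, Gimap6, Gimap7, Gimap1, Gimap5, and Gimap3. Gimap6 and Gimap3 are on the minus strand and the others on the plus strand, and the antisense transcript Gimap1os overlaps Gimap1. Whether reads were counted by strand is not given in the sources used here, so Gimap1 and Gimap1os are uncertain against each other, as are reads that close relatives such as Gimap3 and Gimap5 could share.

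**Figure D1:**
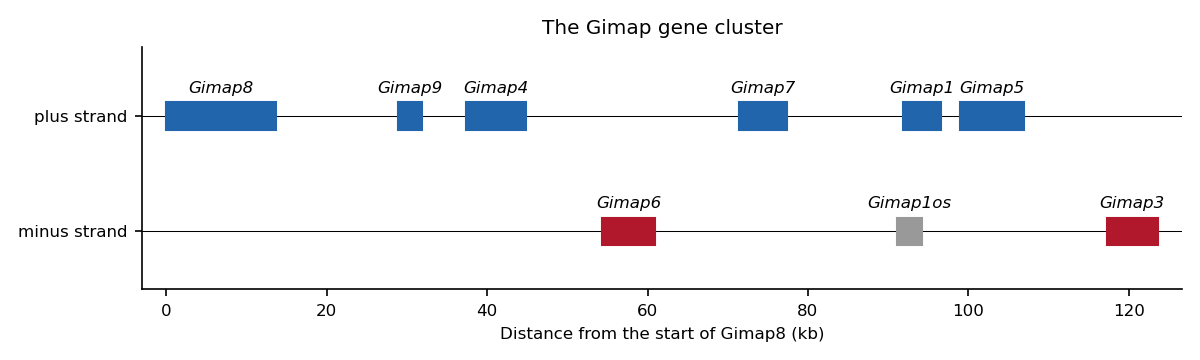
Map of the Gimap cluster drawn to scale, with distance from the start of Gimap8 in kb on the x axis and the 2 strands as rows. Blue boxes are members on the plus strand, red boxes members on the minus strand, and the grey box is the antisense transcript Gimap1os, which overlaps Gimap1.

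The 250 bases before the RefSeq start of 4 members are shown because Gimap4 and Gimap7 were higher and Gimap6 lower in graft than in spleen at 1 and 3 weeks, and Gimap5 was lower in rejecting mice in both tissues (sequence from RefSeq, GRCm38.p6, written 5′ to 3′ on the strand of the gene). Capitals mark 4 motifs searched on both strands, CACCC for KLF factors, TGTGGT for RUNX factors, GGAAGT for ETS factors, and TGTTTAC for FOXO factors.
Gimap4 promoter, chr6:48684328-48684577, plus strand: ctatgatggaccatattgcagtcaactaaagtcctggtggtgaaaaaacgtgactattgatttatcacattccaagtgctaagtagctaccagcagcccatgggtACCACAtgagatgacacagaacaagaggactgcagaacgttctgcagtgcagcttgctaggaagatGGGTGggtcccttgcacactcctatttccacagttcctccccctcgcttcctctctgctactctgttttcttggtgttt
Gimap7 promoter, chr6:48718371-48718620, plus strand: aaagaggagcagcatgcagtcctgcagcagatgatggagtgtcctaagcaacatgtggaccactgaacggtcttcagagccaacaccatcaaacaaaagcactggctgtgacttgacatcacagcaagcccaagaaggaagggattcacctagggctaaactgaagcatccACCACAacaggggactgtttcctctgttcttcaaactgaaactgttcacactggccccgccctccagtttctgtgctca
Gimap6 promoter, chr6:48708245-48708494, minus strand: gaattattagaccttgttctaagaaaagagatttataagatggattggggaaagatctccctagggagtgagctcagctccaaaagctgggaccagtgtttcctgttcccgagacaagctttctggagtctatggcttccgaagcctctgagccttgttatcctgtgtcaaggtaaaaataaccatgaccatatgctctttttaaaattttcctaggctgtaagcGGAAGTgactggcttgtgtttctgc
Gimap5 promoter, chr6:48745947-48746196, plus strand: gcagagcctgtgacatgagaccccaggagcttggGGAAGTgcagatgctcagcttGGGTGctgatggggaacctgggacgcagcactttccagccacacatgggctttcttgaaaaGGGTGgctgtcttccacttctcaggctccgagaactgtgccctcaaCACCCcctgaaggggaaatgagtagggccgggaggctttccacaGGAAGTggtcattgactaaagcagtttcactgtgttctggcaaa
Of the 9 member promoters listed, with Gimap8 listed under 2 starts, the RUNX letters stood in 3 (Gimap4, Gimap7, and Gimap1), against 14.0% of 32851 promoters of the same length. The ETS letters stood in 2 (Gimap6 and Gimap5, against 19.7%), the FOXO letters in 1 (Gimap3, against 3.17%), and the KLF letters in 6 (Gimap8 at both starts, Gimap9, Gimap4, Gimap5, and Gimap3), against 52.0%. The searched motifs share no overlapping hit in the promoters printed, and a match of letters is a description only.

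Gimap RNA was lymphoid in naive spleen and differed by lymphocyte type. As a share of all UMIs, most members were higher in NK than in CD8 T cells, Gimap3 and Gimap4 were lower and Gimap1 and Gimap6 higher in B than in CD8 T cells, and cells with myeloid genes held almost none. Gates were set on marker UMIs of the CD45+ matrix (CD8 T cells with Cd3 and Cd8 genes, CD4 T cells with Cd3 genes and Cd4, B cells with at least 2 of 4 B genes, NK cells with at least 2 of 3 NK genes and no Cd3 gene), which left 4213 CD8 T, 2424 CD4 T, 28463 B, 1004 NK, and 668 myeloid cells of 47060.

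Gimap4 stood at 609, 699, 643, 635, and 682 CPM in the NK gate of the 5 naive libraries. The CD8 T gate gave 305, 313, 315, 300.2, and 333 CPM and the B gate 213, 199, 199.7, 210.1, and 216 CPM. These 3 ranges did not overlap, with NK cells highest and B cells lowest. The log2 fold change of NK over CD8 T cells was 1.06 ± 0.05 SE, adjusted p = 1.6e-33 (edgeR quasi-likelihood test with the library as a block, Benjamini-Hochberg adjustment over all genes tested). In all, 7 of 8 members passed as higher in NK cells, against 52.2% of all genes tested, and Gimap3 did not pass, at 376 to 490.1 CPM in NK and 366 to 444 CPM in CD8 T cells. The median difference over all genes was 0.45 on the log2 scale, and under scaling by TMM the calls for Gimap6 (0.44 ± 0.06) and Gimap7 (0.65 ± 0.09) were lost, with the sign of Gimap6 turned (-0.019) and Gimap7 at 0.19 (adjusted p = 0.0774). Gimap5, Gimap8, and Gimap9 differed by 1.00 ± 0.08, 0.99 ± 0.08, and 1.00 ± 0.07 (adjusted p from 2.14e-22 to 3.31e-20), and they passed in the same direction under every alternative run. NK cells were shallower than CD8 T cells, with median depths of 2059 to 2846.5 UMIs per library against 3740.5 to 4937. Counted in UMIs per cell, Gimap4, Gimap5, Gimap8, and Gimap9 were higher in NK than in CD8 T cells in all 5 libraries, Gimap1 and Gimap7 in 2, and Gimap3 and Gimap6 in none. Gimap6 had 1.25, 1.45, 1.57, 1.46, and 1.08 UMIs per NK cell and 1.38, 1.80, 1.88, 1.78, and 1.44 per CD8 T cell.

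Between CD8 T and B cells the members split. Gimap3 stood at 174 to 199.9 CPM in B cells, below each library's CD8 T gate (366 to 444 CPM), a log2 difference of 1.11 ± 0.03 SE, adjusted p = 1.19e-18. Gimap1 went the other way, at 395 to 441 CPM in B and 234 to 268 CPM in CD8 T cells (-0.75 ± 0.03 SE, adjusted p = 1.13e-15). Gimap6 was also lower in CD8 T than in B cells (-0.63 ± 0.03 SE, adjusted p = 4.85e-14), so that 3 members passed as higher in CD8 T cells (Gimap3, Gimap4, and Gimap9) and 4 as lower (Gimap1, Gimap6, Gimap7, and Gimap8), against 22.5% and 48.9% of all genes. Gimap8 was near the median of all genes (-0.22), and without mitochondrial and ribosomal protein genes 2 members were lower, with the Gimap7 call lost (-0.073, adjusted p = 0.209) and the sign of Gimap8 turned (0.050). Gimap5 did not pass, at 101 to 115 CPM in CD8 T and 105 to 115 CPM in B cells. B cells had median depths of 2225 to 2902.5 UMIs, and in UMIs per cell Gimap1 and Gimap6 were higher than in CD8 T cells in all 5 libraries, Gimap7 in 1, and Gimap3, Gimap4, Gimap5, Gimap8, and Gimap9 in none.

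Against CD4 T cells, CD8 T cells had lower CPM of 6 members, with differences from -0.54 ± 0.04 for Gimap1 to -0.26 ± 0.06 for Gimap8, and a higher value of 1, Gimap5 (0.18 ± 0.06 SE, adjusted p = 0.0238), against 20.2% lower and 8.15% higher of all genes. The Gimap5 call was lost without library NS1 (adjusted p = 0.138) or NS3 (0.1), with the DESeq2 test, and without the library block. In UMIs per cell Gimap1 was higher and Gimap5 lower in CD4 than in CD8 T cells in all 5 libraries, and the other members differed in direction between libraries, at median depths of 3080 to 4305.5 UMIs in CD4 T cells. In the myeloid gate, no member exceeded 35.1 CPM in a naive or rejecting kidney library. The myeloid gate of rejecting kidney (6117 cells) held at most 8.56 CPM of any member. Its CD4 T gate (247 cells) had 719 and 663 CPM of Gimap4, beside 607 and 610.3 CPM in its CD8 T gate, and with 2 libraries these levels were not tested.

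**Figure D2:**
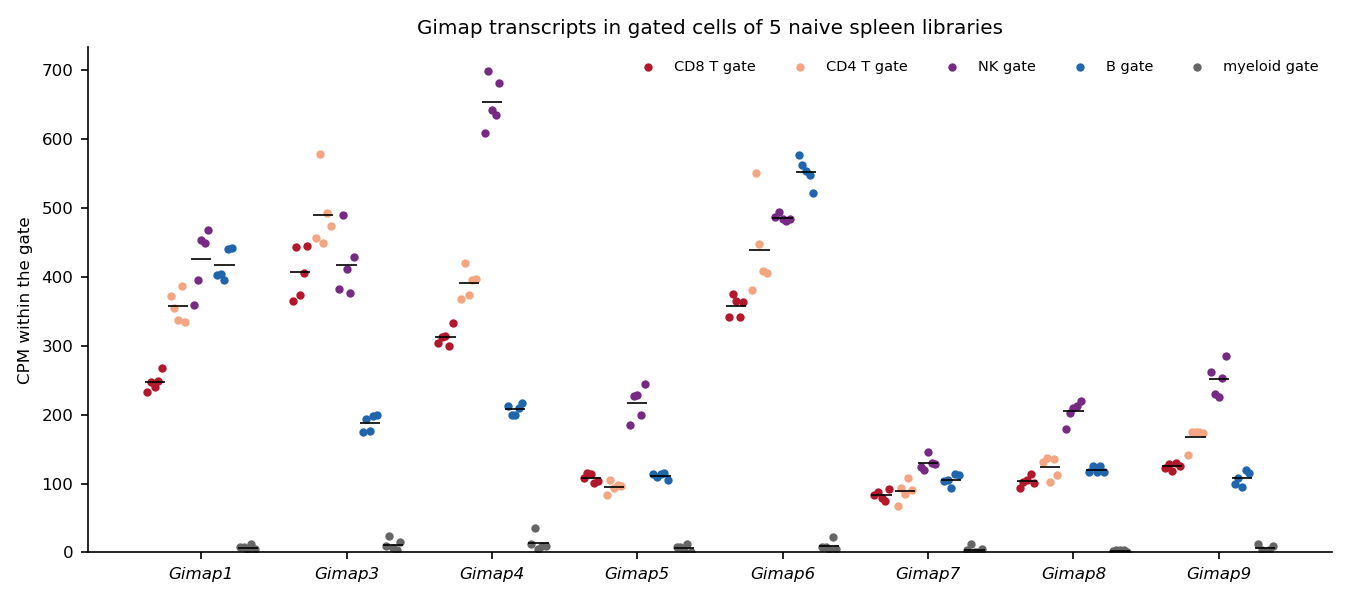
CPM (y axis) of each member in 5 gates of naive spleen; each point is 1 of 5 libraries and each line the mean. NK cells lie above CD8 T cells for Gimap4 (609 to 699 against 300.2 to 333 CPM), B cells lie below CD8 T cells for Gimap3 and above them for Gimap1, and the myeloid gate lies near 0.

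Across the 9 CD8 groups the summed RNA of the family had a narrower range than any single member, and the members differed in which group was highest. The sum of the 8 members ranged from 1696 ± 76.3 CPM (SD, n = 5) in naive spleen to 2682 ± 122 CPM (SD, n = 5) in 3-week kidney, a ratio of 1.58. Gimap7 had the widest range, 4.07 times, from 77.2 ± 4.87 CPM (n = 5) in naive spleen to 314 ± 35.2 CPM (n = 3) in the libraries labelled 24-week spleen, with 3-week kidney next at 291 ± 33.7 CPM (n = 5). Gimap6 followed at 2.90 times, from 181 ± 53.2 CPM (n = 2) in rejecting kidney to 526.2 ± 48.6 CPM (n = 5) in 3-week spleen. Gimap9 had the narrowest range of a member, 1.69 times, from 99.7 ± 10.4 CPM (n = 2) in rejecting kidney to 169 ± 6.85 CPM (n = 3) in the libraries labelled 24-week spleen, with 3-week kidney next at 162 ± 7.53 CPM (n = 5). Values of different members were not set against each other, since a 3′ count depends on the gene's end as well as on its RNA.

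Most neighbours in the order of the group means were not apart. Of the 8 steps in each order, the libraries of neighbouring groups overlapped in 7 steps for Gimap3, Gimap7, and Gimap8, in 6 for Gimap1, Gimap5, Gimap6, and Gimap9, and in 5 for Gimap4. The step without overlap for Gimap7 lay between the libraries labelled 24-week kidney and 1-week spleen, with naive spleen, 3-week spleen, and the libraries labelled 24-week kidney below it. For Gimap4 the steps lay above the libraries labelled 24-week kidney, above 3-week spleen, and above 1-week spleen. For Gimap5 they lay between naive spleen and the libraries labelled 24-week kidney, and between the libraries labelled 24-week spleen and 3-week kidney.

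**Figure D3:**
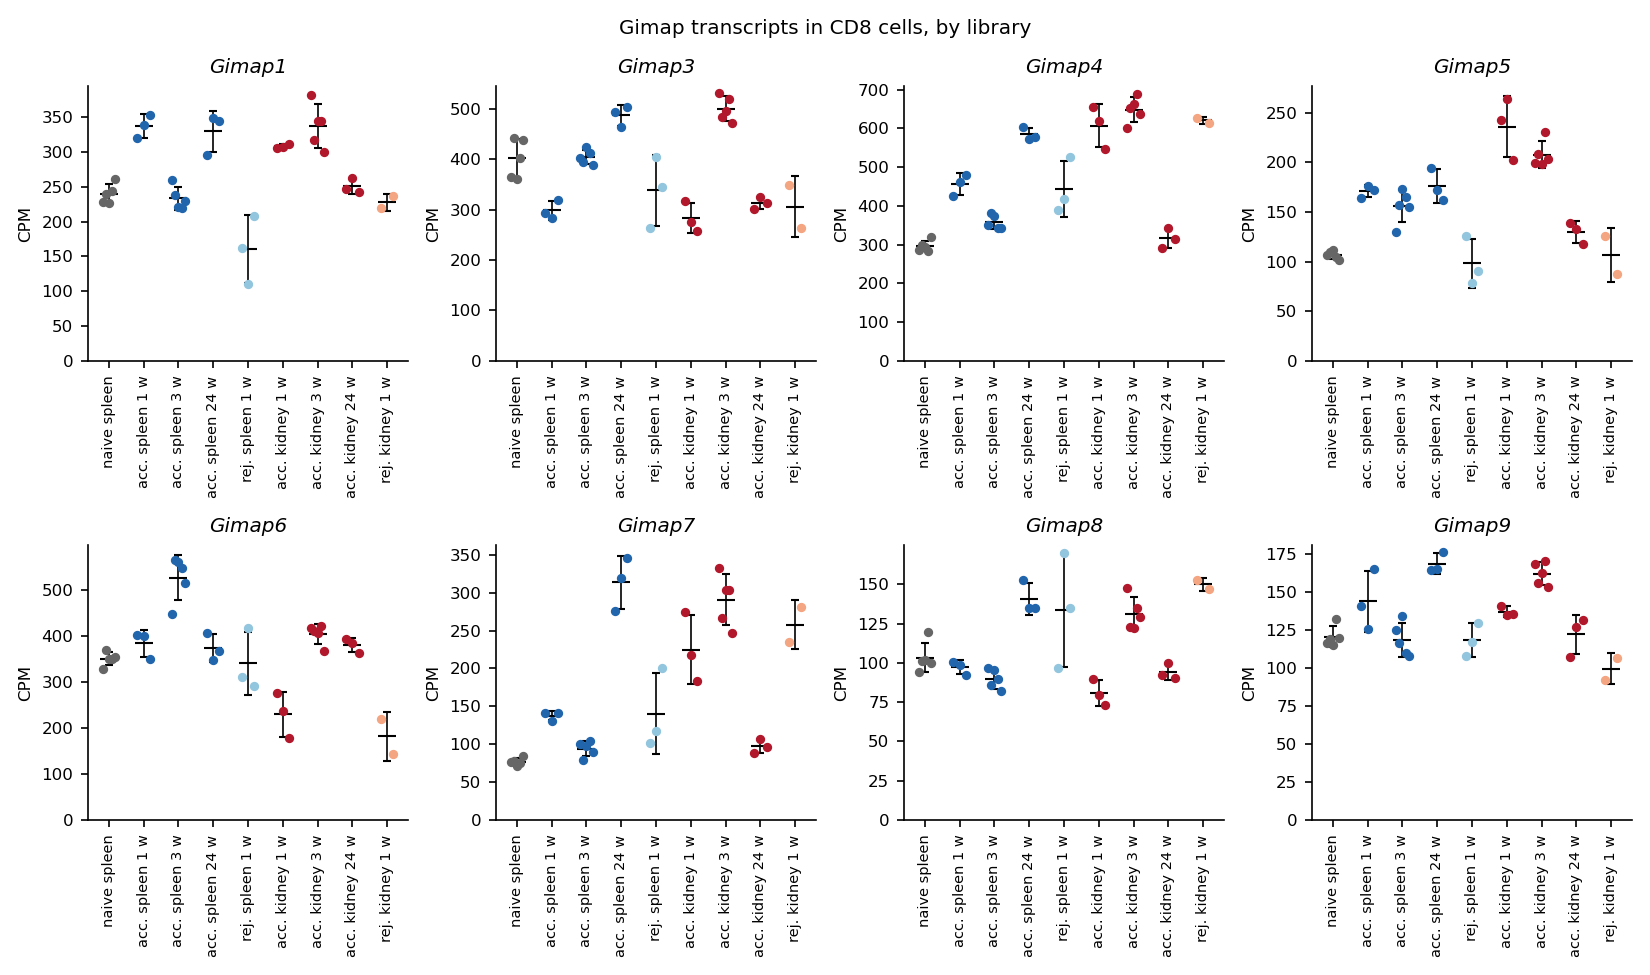
CPM (y axis) of each member in cells with a Cd8a or Cd8b1 UMI, by group (x axis; acc., accepted; rej., rejecting; w, weeks); points are libraries, and the black bars give the mean ± SD. Gimap7 is low in naive and 3-week spleen (71.5 to 84.8 and 79.1 to 105 CPM) and high in 3-week kidney (247 to 332 CPM), and the 24-week groups are shown as labelled.

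The first comparison asked how CD8 cells inside the accepted graft differ from those in the recipient's spleen. Gimap4 and Gimap7 were higher in kidney at 1 and 3 weeks, and Gimap6 was lower at both. At 1 week Gimap7 stood at 274, 218, and 183 CPM in kidney and at 141, 131, and 141 CPM in spleen, with every kidney library above every spleen library and a 1.63-fold difference (log2 0.70 ± 0.14 SE, adjusted p = 0.00112). At 3 weeks it stood at 332, 267, 303, 304, and 247 CPM in kidney and at 99.8, 79.1, 97.7, 105, and 90.3 CPM in spleen, again without overlap. That difference was 3.09-fold (log2 1.63 ± 0.09 SE, adjusted p = 4.22e-12). The Gimap7 calls at both times held under every alternative run, down to 0.42 and 1.27 on the log2 scale.

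Gimap4, the member linked to apoptosis, stood at 655, 619, and 548 CPM in 1-week kidney and at 426, 463, and 480.1 CPM in 1-week spleen (0.41 ± 0.10 SE, adjusted p = 0.00581). At 3 weeks its values were 600.1 to 689 CPM in kidney and 343 to 383 CPM in spleen (0.85 ± 0.06 SE, adjusted p = 1.49e-10). Neither pair of groups overlapped, and the 3-week call held under every alternative, whereas the 1-week call was lost in 2 of 10 settings other than leaving out a library. Gimap6, the partner of Gabarapl2, was the exception in the opposite direction, with 275, 236, and 177 CPM in 1-week kidney and 403, 399, and 349 CPM in 1-week spleen (-0.74 ± 0.14 SE, adjusted p = 0.00122). At 3 weeks Gimap6 stood at 417, 411, 405, 421, and 368 CPM in kidney and at 447, 564, 560.4, 546, and 514 CPM in spleen (-0.38 ± 0.07 SE, adjusted p = 6.26e-05), and both calls held under every alternative.

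In all, 3 members (Gimap4, Gimap5, and Gimap7) were higher and 1 lower in kidney at 1 week, against 30.0% and 19.4% of all genes tested. At 3 weeks 7 were higher and 1 lower, against 48.6% and 16.8%. The median of all genes lay at 0.28 at 3 weeks, and the members' median at 0.49, so that the smaller 3-week differences of Gimap3 (0.31 ± 0.06), Gimap5 (0.42 ± 0.07), and Gimap9 (0.45 ± 0.07) lay close to it. At 3 weeks 4 members were higher without mitochondrial and ribosomal protein genes, where Gimap3, Gimap5, and Gimap9 did not pass, and 5 with TMM factors, DESeq2 size factors, or the DESeq2 test, where Gimap3 and Gimap5 did not. At 1 week the same fit without mitochondrial and ribosomal protein genes gave 1 higher and 5 lower, TMM factors gave 3 and 3, and the number in the library tag as a block gave 3 and 2, with Gimap8 as the further lower member (log2 -0.27 ± 0.11 SE, adjusted p = 0.0347). The 3-week Gimap3 difference turned in sign without mitochondrial and ribosomal protein genes (-0.052). Marker RNA of other cell types moved with the tissue, with 4 B genes summing to 395 to 839 CPM in 1-week spleen and 8.86 to 9.26 CPM in 1-week kidney. The myeloid markers summed to 156 to 243 CPM in kidney and 49.6 to 63.9 CPM in spleen at 1 week, and to 341 to 689.9 and 12.2 to 53.9 CPM at 3 weeks. The NK markers summed to 20.3 to 23.1 CPM in kidney and 53.7 to 62.5 CPM in spleen at 1 week and overlapped at 3 weeks, when the B genes stood at 11.6 to 26.4 and 103 to 286 CPM, Cd4 at 2.64 to 5.77 and 9.15 to 16.1 CPM, and kidney parenchyma RNA at the values given above. The NK markers summed here and below are Ncr1, Klrb1c, Klre1, and Eomes. The study also measured Eomes in CD8 T cells of grafts, so this sum can come in part from CD8 T cells. Leaving out every cell with a UMI of a Cd4, B, NK, or myeloid marker kept all 4 calls at 1 week and all 8 at 3 weeks. Such refits also leave out CD8 T cells with an Eomes UMI.

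Between 1 and 3 weeks Gimap RNA in the graft's CD8 cells rose for Gimap3, Gimap6, and Gimap8. Gimap3 stood at 316, 276, and 257 CPM at 1 week and at 530.4, 484, 495, 518, and 471 CPM at 3 weeks, with no overlap (0.82 ± 0.09 SE, adjusted p = 5.51e-07). Gimap6, with the library values given above, rose by a log2 fold change of 0.82 ± 0.12 SE, adjusted p = 1.28e-05. Gimap8, the largest member, stood at 89.7, 79.6, and 72.9 CPM at 1 week and at 147, 123, 122, 135, and 129 CPM at 3 weeks (0.70 ± 0.09 SE, adjusted p = 6.04e-06). The 1-week libraries of these members were all below the 3-week ones, and the 3 calls held under every alternative. Gimap7 (0.37 ± 0.12) and Gimap9 (0.24 ± 0.07) also passed, which made 5 higher and 0 lower, against 53.6% and 21.2% of all genes. With TMM factors, DESeq2 size factors, or the DESeq2 test, the count was 3 higher and 3 lower. The summed myeloid and NK markers were higher at 3 than at 1 week in every kidney library, with the NK markers at 41.8 to 74.7 CPM against 20.3 to 23.1 CPM, and so was kidney parenchyma RNA (9.02 to 16.9 against 1.68 to 6.89 CPM). Cd4 was lower and the B genes higher. Without cells holding a UMI of a Cd4, B, NK, or myeloid marker the count was 5 higher and 0 lower, and the part of the kidney parenchyma RNA was not tested. Gimap7 and Gimap9 lay below the median of all genes (0.41), and with TMM factors they stood at -0.0094 and -0.14, with the opposite sign. Cells with an Mki67 or Top2a UMI (proliferation UMI) were 5653 of 13963 at 1 week and 2787 of 21487 at 3 weeks. In cells with neither, mean CPM at 1 and 3 weeks was 341 and 503 for Gimap3 and 271 and 406 for Gimap6. It was 92.4 and 132 for Gimap8, 248 and 291 for Gimap7, and 278 and 208 for Gimap5. The part of proliferation in these changes was not tested. Without library 7K3, which held 3495 of the 5653 cells with a proliferation UMI, the adjusted p of Gimap7 was 0.0713. Gimap5 did not pass, at 243, 263, and 202 CPM and 198 to 230.4 CPM, and it passed as lower without 7K3 (adjusted p = 0.00712) or TK4 (0.0499).

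In the spleen over the same time, Gimap3 and Gimap6 also rose, whereas Gimap1, Gimap4, Gimap7, and Gimap9 fell. Gimap1 stood at 319.8, 339, and 353 CPM at 1 week and at 259, 239, 221, 219, and 229 CPM at 3 weeks (-0.53 ± 0.08 SE, adjusted p = 2.4e-05). Gimap7 differed by -0.55 ± 0.09 SE, adjusted p = 6.39e-05, and Gimap6 by 0.46 ± 0.09 SE, adjusted p = 0.000315. Thus 2 members rose and 4 fell, against 31.9% and 17.4% of all genes. The 4 B genes summed to 395 to 839 CPM at 1 week and to 103 to 286 CPM at 3 weeks, and the count was the same without cells holding a UMI of a Cd4, B, NK, or myeloid marker. The fall of Gimap9 (-0.28 ± 0.10) was lost without 7S3 (adjusted p = 0.164), TS4 (0.0529), or TS5 (0.063).

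The difference between these changes was itself tested as an interaction of tissue and week. It passed for 6 members, all with a change more positive in kidney than in spleen, against 24.3% of all genes in that direction and 9.48% in the other, where no member passed. Gimap7 had the largest difference at 0.92 ± 0.16 SE, adjusted p = 0.000159, followed by Gimap8 at 0.81 ± 0.12 and Gimap1 at 0.66 ± 0.11, and these 3 passed under every alternative run. Gimap3, Gimap4, and Gimap9 passed in 22, 23, and 24 of 26 alternatives, and with DESeq2 size factors or the DESeq2 test the count was 3. With the number in the library tag as a block Gimap6 passed as well (0.38 ± 0.11 SE, adjusted p = 0.00979). The median over all genes was 0.23.

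In the libraries labelled 24 weeks, Gimap4 and Gimap7 differed between the tissues in the direction opposite to that at 1 and 3 weeks, and Gimap6 did not pass, at 362 to 392 CPM in those labelled kidney and 347 to 406 CPM in those labelled spleen. Gimap7 stood at 88.6, 107, and 96.7 CPM in those labelled kidney and at 277, 319, and 346 CPM in those labelled spleen. The difference of labelled kidney against labelled spleen was -1.68 ± 0.11 SE, adjusted p = 6.66e-10. Gimap4 likewise stood at 291, 342, and 315 CPM and 604, 573, and 578 CPM (-0.89 ± 0.09 SE, adjusted p = 1.46e-07), and 7 members passed as lower in the libraries labelled kidney and 0 as higher, against 39.1% and 14.7% of all genes. With TMM factors or the DESeq2 test 4 were lower and 1 higher, and without mitochondrial and ribosomal protein genes 3 and 1. The kidney parenchyma RNA given above moved with these values, as did the B genes, at 78.4 to 209 CPM in the libraries labelled kidney and 13.9 to 42.8 CPM in those labelled spleen, and the myeloid markers, at 7.58 to 17.4 and 109 to 116 CPM. The NK markers stood at 42.9 to 67.5 and 70.2 to 89.9 CPM. Without cells holding a UMI of a Cd4, B, NK, or myeloid marker the count was 7 lower and 0 higher. As labelled, 7 members were lower and 0 higher in 24-week than in 3-week kidney, against 56.9% and 14.2% of all genes, with Gimap7 at -1.57 ± 0.10 SE, adjusted p = 1.24e-09. As labelled, 6 were higher and 1 (Gimap6) was lower in 24-week than in 3-week spleen, against 31.1% and 27.4%, with Gimap7 at 1.74 ± 0.10 SE, adjusted p = 2.24e-13. The kidney change had a median over all genes of -0.51, and Gimap1, Gimap8, and Gimap9 turned in sign there under other scalings. The B, Cd4, myeloid, and kidney parenchyma RNA did not overlap between 3 and 24 weeks in either labelled tissue. Without cells holding a UMI of a Cd4, B, NK, or myeloid marker 8 members were lower in labelled kidney, and 6 were higher and 1 lower in labelled spleen. These comparisons share the 3-week libraries with those above.

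A second question was whether CD8 cells of rejecting mice differ from those of accepting mice at 1 week. Gimap5, the member whose loss causes lymphopenia, and Gimap1 were lower in rejecting mice in both tissues. In kidney, Gimap5 stood at 126 and 87.8 CPM in the rejecting and at 243, 263, and 202 CPM in the accepted libraries, without overlap and 2.22-fold lower (-1.15 ± 0.21 SE, adjusted p = 0.00192). In spleen it stood at 126, 78.3, and 90.7 CPM in the rejecting and at 164, 176, and 173 CPM in the accepted libraries, again without overlap (-0.72 ± 0.17 SE, adjusted p = 0.00311). Naive spleen, labelled C57BL/6J as every sample is, stood at 102 to 111 CPM of Gimap5, within the range of the rejecting libraries. The part of strain was not tested. The kidney call held under every alternative. The spleen call held under every alternative but one, the fit without cells holding a UMI of a Cd4, B, NK, or myeloid marker (-0.44, adjusted p = 0.09), which left 6 cells in library R7S2. The myeloid markers summed to 23.9, 698, and 237 CPM in the rejecting spleen libraries R7S1, R7S2, and R7S3. In accepted spleen they summed to 49.6 to 63.9 CPM. Of the R7S2 cells, 85.7% held a myeloid UMI. The part of this myeloid RNA in the lower Gimap5 and Gimap1 values was not tested.

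Gimap1 stood at 162, 111, and 209 CPM in rejecting and at 319.8, 339, and 353 CPM in accepted spleen (-0.98 ± 0.18 SE, adjusted p = 0.000404). In kidney it was 219 and 236 CPM against 306, 307, and 311 CPM (-0.44 ± 0.15 SE, adjusted p = 0.0351). The groups did not overlap in either tissue. The spleen call held under every alternative, whereas the kidney call passed in 1 of 5 fits with a library left out. Without R7K2, 7K1, 7K2, or 7K3 its adjusted p was 0.0795, 0.0875, 0.0968, and 0.0932.

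Gimap9 was lower in rejecting kidney (-0.46 ± 0.16 SE, adjusted p = 0.034) and Gimap8 higher (0.89 ± 0.16 SE, adjusted p = 0.00154), with Gimap8 at 153 and 147 CPM against 89.7, 79.6, and 72.9 CPM. The Gimap9 call was lost without the same 4 libraries (adjusted p from 0.0818 to 0.117). The NK markers summed to 38.3 to 49.3 CPM in rejecting and 20.3 to 23.1 CPM in accepted kidney, and Cd4 stood at 0 in the rejecting and at 8.71 to 18.6 CPM in the accepted libraries. Without cells holding a UMI of a Cd4, B, NK, or myeloid marker, Gimap9 (-0.33, adjusted p = 0.131) and Gimap1 (-0.40, adjusted p = 0.0644) did not pass, which left 1 lower member, Gimap5, and 1 higher, Gimap8. Thus 1 member was higher and 3 were lower in rejecting kidney, against 47.7% and 10.4% of all genes, and 0 higher and 2 lower in rejecting spleen, against 39.8% and 11.5%. In rejecting spleen TMM or DESeq2 size factors gave 5 lower, the DESeq2 test 6, and the fit without mitochondrial and ribosomal protein genes 4. The 4 B genes summed to 65.2 to 272 CPM there, against 395 to 839 CPM in accepted spleen, and the myeloid markers stood at the values given with Gimap5. Both spleen calls were kept without cells holding a Cd4, B, or Lyz2 UMI, and only that of Gimap1 without cells holding a UMI of a Cd4, B, NK, or myeloid marker. The median over all genes was 0.68 in kidney and 0.45 in spleen, and the members' medians were -0.16 and -0.13. With TMM factors, which centre that shift, 6 members were lower and none higher in rejecting kidney, and the Gimap8 call was lost (0.23). Recipient strain (DBA/2J against B6) changes together with outcome in these comparisons, as does the fit of reads to the B6 genome. The rejecting matrices also list genes without counts, such as Gm30781 and Gm44764, that no other CD8 matrix lists. The matrices may thus have been made differently as well, and these factors cannot be told apart.

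Between the tissues of rejecting mice, only Gimap6 passed in the main test, at 219 and 144 CPM in kidney and 311, 418, and 292 CPM in spleen (-0.88 ± 0.28 SE, adjusted p = 0.0447). The direction was that of the accepted mice, lower in the graft. It was 1 of 8 members against 5.79% of genes lower, no member passed as higher against 11.4%, and the call was lost without R7K3, R7S1, R7S2, or R7S3 (adjusted p = 0.286, 0.125, 0.125, and 0.0886). It was also lost without cells holding a UMI of a Cd4, B, NK, or myeloid marker (adjusted p = 0.0926), and the B genes summed to 3.45 to 8.72 CPM in the kidney and 65.2 to 272 CPM in the spleen. Gimap7 stood at 235 and 281 CPM in rejecting kidney and at 102, 117, and 201 CPM in rejecting spleen, did not overlap, and did not pass (adjusted p = 0.0669), but it passed without R7K2 (adjusted p = 0.0357) or R7S3 (0.0286).

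Accepted spleen at 1 week was also set against naive spleen. Gimap7 stood at 131 to 141 CPM after transplantation and at 71.5 to 84.8 CPM in naive spleen (0.84 ± 0.07 SE, adjusted p = 4.36e-08). Gimap5 stood at 164 to 176 against 102 to 111 CPM (0.68 ± 0.07 SE, adjusted p = 2.05e-07) and Gimap4 at 426 to 480.1 against 284 to 319 CPM (0.62 ± 0.07 SE, adjusted p = 5.24e-07), and neither overlapped. Gimap3, by contrast, was lower after transplantation, at 283 to 318 against 361 to 441 CPM (-0.43 ± 0.08 SE, adjusted p = 0.000229). With Gimap1 and Gimap9, 5 members were higher and 1 lower, against 21.1% and 36.5% of all genes, whose median was -0.17. The 4 B genes summed to 395 to 839 CPM in accepted and 27.9 to 55.6 CPM in naive spleen, the myeloid markers to 49.6 to 63.9 and 3.75 to 35.4 CPM, and Cd4 to 7.57 to 13.8 and 1.61 to 4.03 CPM. All 6 calls were kept without cells holding a UMI of a Cd4, B, NK, or myeloid marker. The Gimap9 call was lost without 7S3 (adjusted p = 0.142).

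**Figure D4:**
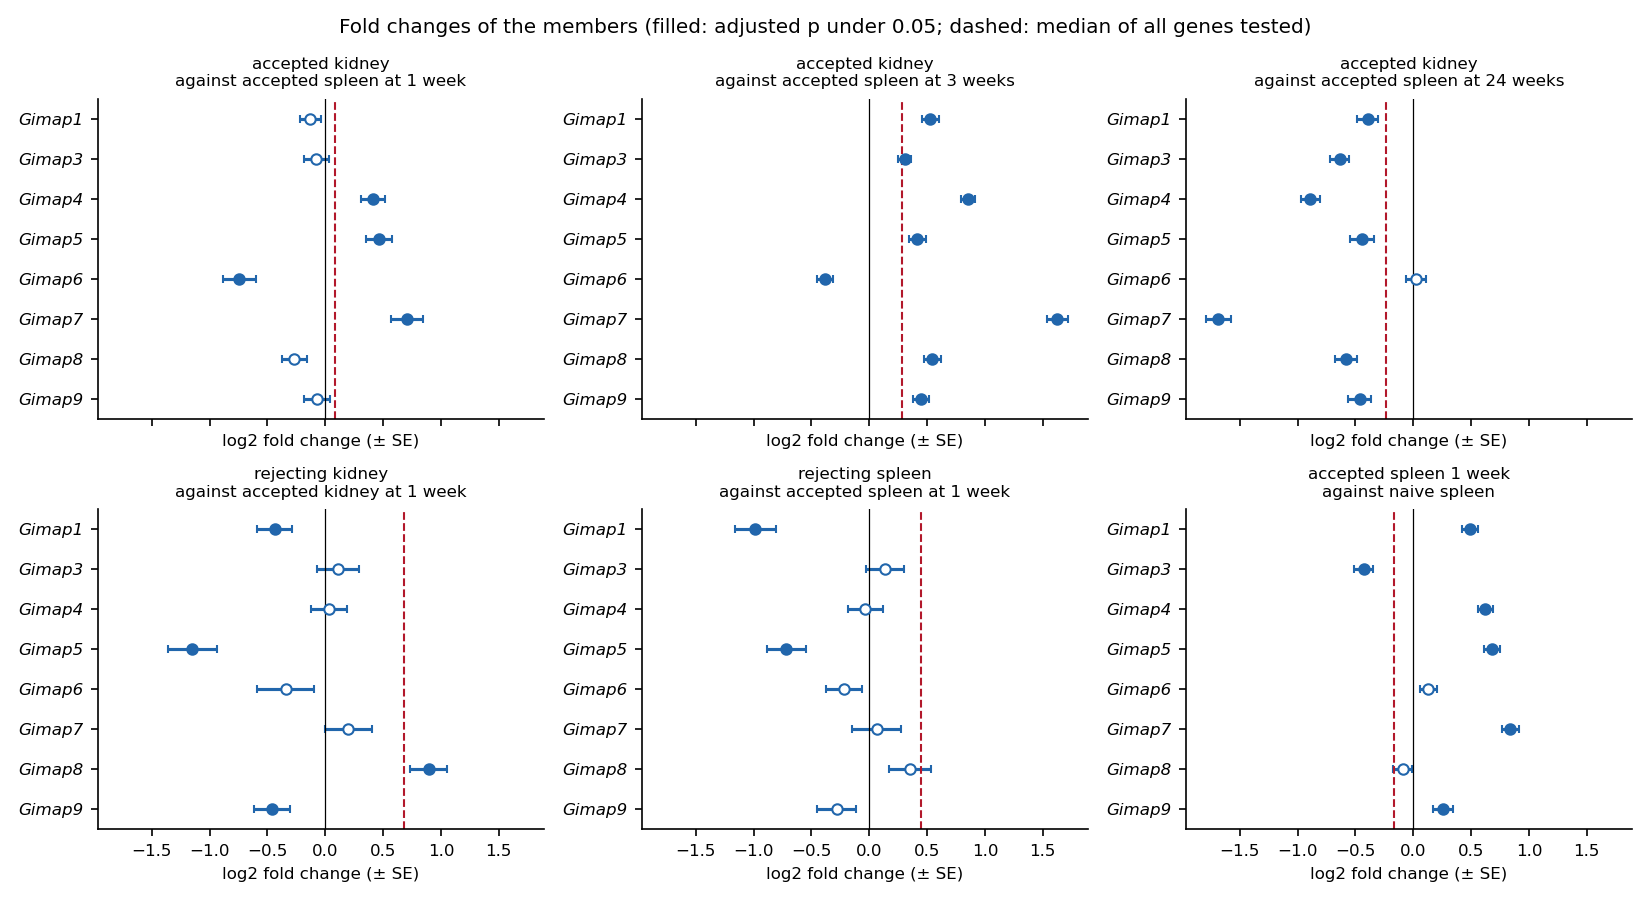
Log2 fold change (x axis) ± SE of each member (y axis) in 6 comparisons; filled points have an adjusted p under 0.05, and the dashed line is the median of all genes tested. Gimap7 lies right of 0 in kidney against spleen at 1 and 3 weeks (0.70 and 1.63) and left of it at 24 weeks as labelled (-1.68), and Gimap5 lies left of 0 in both rejecting comparisons.

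Within the 1-week kidney libraries, the members other than Gimap9 made up a smaller share of all UMIs in proliferating CD8 cells. Cells with an Mki67 or Top2a UMI (5653 cells) were set against cells with neither (8310 cells) in the same library. Gimap3 stood at 246, 230.5, and 222 CPM in the first and at 382, 317, and 324 CPM in the second (-0.55 ± 0.05 SE, adjusted p = 1.03e-09). Gimap5 stood at 193, 224, and 179 CPM and 289, 299, and 246 CPM (-0.48 ± 0.05 SE, adjusted p = 1.51e-08). Both shares were lower in the proliferating cells of all 3 libraries. Counted per cell and not as a share, Gimap3 had 1.08, 1.65, and 0.95 UMIs in proliferating cells and 0.79, 1.18, and 0.73 in the others, and every member had more UMIs per cell in the proliferating cells of each library. Of the 8 members, 7 were lower and 0 higher, against 14.6% and 26.9% of all genes in CPM. Gimap9 did not pass, at 139.9, 133, and 134 CPM and 143, 136, and 138 CPM. The proliferating cells had median depths of 3776.5 to 6301.5 UMIs, against 1774 to 3278 in the others. The part of this depth difference was not tested. Without the library as a block only Gimap3, Gimap5, and Gimap8 passed, as lower. The same split of 3-week kidney (2787 and 18700 cells) was not tested. There Gimap3 stood at 523, 445, 463, 524, and 453 CPM in the proliferating and at 532, 489, 501, 517, and 474 CPM in the other cells. Gimap5 stood at 197, 188, 209.5, 239, and 199 CPM and 199.9, 211, 196, 229, and 204 CPM. The ranges of the 2 sets of cells overlapped for all 8 members at 3 weeks. Compared within libraries, each member differed in direction between libraries, and the mean of each was lower in the proliferating cells.

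CD8 cells with a Gzmb and no Ccr7 or Lef1 UMI were then set against cells with a Ccr7 or Lef1 and no Gzmb UMI. At 1 week (5726 and 1694 cells), Gimap6 stood at 237, 209, and 156 CPM in Gzmb cells and at 319, 273, and 212 CPM in the others, lower in each library (-0.42 ± 0.07 SE, adjusted p = 5.65e-05). Gimap7 stood at 276, 222, and 186 CPM and 203, 179, and 169.8 CPM, higher in each (0.29 ± 0.08 SE, adjusted p = 0.00787). At 1 week the directions of Gimap6 and Gimap7 were those of kidney against spleen. Gimap5, by contrast, was lower in Gzmb cells (-0.22 ± 0.07 SE, adjusted p = 0.028) and higher in kidney than in spleen at 1 and 3 weeks. Gimap4, also higher in kidney, did not pass here, at a mean of 589 CPM in Gzmb cells and 584 CPM in the others. In all, 1 member was higher and 2 were lower at 1 week, against 9.67% and 7.63% of all genes. The Gimap7 call was lost without 7K1 (adjusted p = 0.2) or 7K2 (0.0999), and without the library as a block no member passed at 1 week. The Gimap5 call was lost without 7K1 or 7K2 (0.146 and 0.268). At 3 weeks, with 272 Ccr7 or Lef1 cells in all, no member passed, against 0.846% of all genes higher and 0.826% lower. Mean CPM in Gzmb and in the other cells was then 405 and 488 for Gimap6 and 283 and 321 for Gimap7. There edgeR gave an unadjusted p under 0.05 for 1 member, Gimap6 (unadjusted p = 0.00274, adjusted p = 0.12), and DESeq2 called 0.

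**Figure D5:**
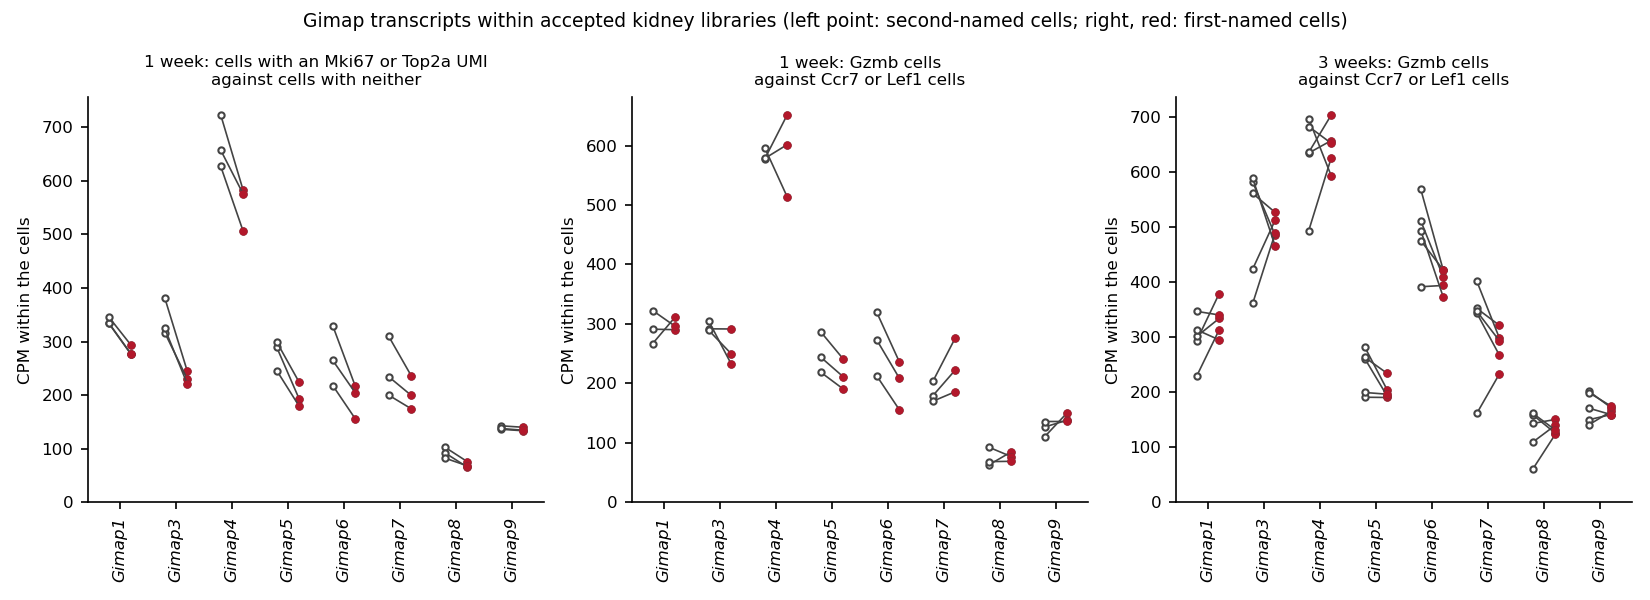
CPM (y axis) of each member in 2 sets of cells of the same library, joined by a line, in accepted kidney; red points are the proliferating cells (left panel) or the Gzmb cells (middle and right panels), and open points the cells they were compared with. In the left panel Gimap3 falls from 317 to 382 CPM in the other cells to 222 to 246 CPM in proliferating cells.

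Counted per cell, most CD8 cells held a Gimap UMI even at a fixed depth. After thinning each cell to 1000 UMIs, a UMI of at least 1 member was found in 90.9% ± 1.35 of cells in 3-week kidney (SD, n = 5), 86.7% ± 2.63 in 1-week kidney (n = 3), and 79.9% ± 1.63 in naive spleen (n = 5). Without thinning the shares were 98.7%, 98.8%, and 99.6%. The same thinned share was 3.49% ± 2.57 in the myeloid gate of naive spleen and 2.33% ± 0.53 in that of rejecting kidney (n = 2), which serves as the background, at median depths before thinning of 3355 to 5580.5 UMIs per library in naive spleen and 2362 to 2463 in rejecting kidney, beside 3730.5 to 4985 in naive CD8 cells. Gimap7 was found in 24.5% ± 2.65 of 3-week kidney cells and 9.17% ± 1.68 of 3-week spleen cells, and Gimap6 in 32.6% ± 2.02 and 39.5% ± 3.70. The shares of these 2 members had the same order between the tissues as their CPM. Cells under 1000 UMIs (103 of the CD8 cells) were left out.

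Other genes of related function, from lists taken with the members, were read in the same fits. Of 11 genes of naive or quiescent T cells, 10 were lower and 0 higher in graft cells at 1 week, and 10 lower and 1 higher at 3 weeks, with a 3-week median of -3.73 against 0.28 over all genes. Of all genes 19.4% were lower and 30.0% higher at 1 week, and 16.8% and 48.6% at 3 weeks. Lef1, a transcription factor of naive T cells, and Ccr7, which guides them to lymph nodes, had the largest 3-week log2 differences, -5.77 ± 0.16 SE (adjusted p = 9.65e-17) and -5.51 ± 0.13 SE (adjusted p = 1.23e-17). The gene that was higher was Btg1, an antiproliferative gene of quiescent cells, at 0.57 ± 0.07 SE (adjusted p = 8.62e-07). Naive-cell genes were lower in kidney in the same libraries in which Gimap4 and Gimap7 were higher. At 24 weeks as labelled, 9 of the 11 were higher and 1 lower in kidney, with a median of 2.50. Of all genes 14.7% were higher and 39.1% lower there. In rejecting kidney 5 of the 11 were higher and 4 lower than in accepted kidney, against 47.7% and 10.4% of all genes, with a median of 0.28 against 0.68 over all genes. The highest was Bach2, a transcription factor that restrains effector differentiation, at 3.13 ± 0.30 SE (adjusted p = 5.62e-05), followed by Btg1 at 1.82 ± 0.39 SE (adjusted p = 0.00424). The lowest were Klf2, at -3.60 ± 0.33 SE (adjusted p = 4.8e-05), and S1pr1, the receptor for exit from tissue that Klf2 drives, at -2.58 ± 0.27 SE (adjusted p = 9.21e-05). These values of list genes are from the main fit only. The part of a shift with intron length in them was not tested, and strain and outcome change together here.

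Of 12 Bcl-2 family genes, 9 were higher and 1 lower in graft than in spleen cells at 3 weeks, against 48.6% and 16.8% of all genes, with a median of 0.66. The lowest was the proapoptotic gene Bbc3, at -2.32 ± 0.16 SE (adjusted p = 1.23e-10), and the highest the antiapoptotic gene Bcl2a1d, at 4.14 ± 0.34 SE (adjusted p = 2.39e-09). These are the 2 ends of the list, and the genes called higher included proapoptotic as well as antiapoptotic ones. The Bcl2a1 genes are near-identical copies, so their counts are uncertain. Of 10 genes of the Atg8 family and autophagy, 10 were higher in kidney at 3 weeks and 6 at 1 week, against 48.6% and 30.0% of all genes, with none lower and a 3-week median of 0.59. Gabarapl1 had the largest 3-week difference, 4.03 ± 0.18 SE (adjusted p = 1.33e-13), and Gabarapl2, the partner of Gimap6, differed by 0.26 ± 0.10 SE (adjusted p = 0.0485) at 1 week. Gimap6 itself was lower in kidney at 1 and 3 weeks. At 24 weeks as labelled, 2 Bcl-2 family genes were higher and 7 lower in kidney, and 0 autophagy genes were higher and 10 lower. Of all genes 14.7% were higher and 39.1% lower there.

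Interferon-inducible GTPases are another GTPase group of immune cells, and act in cell-autonomous defence. Of 15 such genes, 13 rose and 1 fell in kidney from 1 to 3 weeks, against 53.6% and 21.2% of all genes, with a median of 0.78 beside 0.31 for the Gimap members and 0.41 over all genes. In rejecting spleen 11 were higher and 0 lower than in accepted spleen, against 39.8% and 11.5% of all genes, with a median of 0.95 beside -0.13 for the members, and Iigp1 had the largest difference, 2.90 ± 0.37 SE (adjusted p = 2.74e-05). Strain and outcome change together in that comparison too, and the part of the myeloid RNA in rejecting spleen was not tested. Of 20 kidney parenchyma genes, 3 had enough counts to test from 1 to 3 weeks in kidney, and 3 were higher, against 53.6% of all genes.

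Outside the family, expression at the locus was low. Of 19 annotated neighbours within 200000 bp that any matrix lists, 4 exceeded 10 CPM in a group, Gimap1os, 4833403J16Rik, AI854703, and Lrrc61. Gimap1os had group means from 24.3 to 62.6 CPM. It rose in kidney from 1 to 3 weeks (1.04 ± 0.14 SE, adjusted p = 7.33e-06), when Gimap1, on the other strand, did not pass at 306 to 311 and 299.6 to 381 CPM. It also rose in spleen (0.64 ± 0.13 SE, adjusted p = 0.000455), when Gimap1 fell (-0.53 ± 0.08 SE, adjusted p = 2.4e-05).

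The genes whose levels over the 9 group means were most like the members' sum were chosen by the smallest root mean square difference of centred log2(CPM + 1) among 2646 genes whose mean over the 9 groups was at least 50 CPM. They were Upf3b (0.0631), Rab5a (0.109), Ube2b (0.12), Hadhb (0.126), and Emc10 (0.127). By rank correlation over the same 9 points the first 5 were Ccl5, Upf3b, S100a6, Ntan1, and Ctla2a, with Upf3b alone in both. Upf3b acts in mRNA decay, and its group means ran from 51.6 to 85.8 CPM.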

How the data were processed

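Viable CD45+ cells were sequenced in droplets, and the deposited count matrices (UMI counts per gene and cell, not normalised) were made by the authors with Cell Ranger on mm10, per the submitters' processing notes. Whether introns and strand were used in counting is not given in the sources used here. No further cell filter and no doublet caller was applied. UMIs were summed per library tag over cells with a Cd8a or Cd8b1 UMI, or over marker gates, and expressed as CPM of all genes. Sums were tested with edgeR 4.0.16 (quasi-likelihood, plain library totals, filterByExpr, Benjamini-Hochberg over all genes, threshold 0.05) in R 4.3.3, with the library as a block within libraries. The labels tie no tag to a mouse, but the study's methods count each mouse as its own sample and give as many biological replicates of accepting mice as there are tags at each time, so tags were read as mice. The methods give no such number for naive mice and none separately for rejecting mice. In these groups the spread between libraries may be technical. Alternatives were TMM or DESeq2 size factors, DESeq2 1.42.0, no filter, no mitochondrial or ribosomal protein genes, other cell sets or gates, 1 fit over all groups, removal of the shift with intron length, no block, the tag number as a block, cells without a Cd4, B, NK, or myeloid marker UMI, and leaving out each library. The labels tie no kidney to a spleen, but at 1 week, over 11133 genes, same-numbered kidney and spleen libraries deviated together from their group means (correlations of 0.13 to 0.27, against -0.19 to 0.083 for other numbers), so that the numbers were read as pairs there, from the data and not from the labels.

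Depth ran from 153266 to 22782080 UMIs per library, and intervals were not given because libraries carry the error. On simulated counts for the 18 comparisons, 34.3 to 100% of 2-fold changes were recovered, and 7.46 to 71.6% of 1.5-fold changes. The simulation used the same fixed dispersion for every gene and comparison. It was not matched to groups whose libraries spread more, such as the rejecting ones. The members, gene lists, and tests were chosen with earlier results of these data known. All members were named by rule, and of each list up to 4 of the called genes with the largest and smallest changes. Gene positions came from GENCODE M21, in which 97.3% of symbols matched, and promoters from RefSeq (all 8 members matched). Genes that a matrix does not list were left out of its fits. The integrated kidney matrix was not used, and the integrated spleen matrix and the CD45+ matrices of accepted kidney only for the count of shared barcodes. Tables used pandas 2.3.3 and numpy 2.4.6.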

Additional observations from a re-analysis of the deposited data

Results flagged for a closer look

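A single library stood apart from the rest of its group, by Dixon's test, in 3 of 56 sets of 4 to 10 libraries, and chance alone flags about 1 in 20 such sets. Gimap6 in 3-week accepted kidney had its lowest value in library TK5, at 368 CPM, against 405 to 421 CPM in the others. Gimap9 in naive spleen had its highest value in NS4, at 132 CPM, against 115 to 120.1 CPM in the others. In the CD4 T gate of naive spleen, Gimap9 had its lowest value in NS1, at 141 CPM, against 173 to 175 CPM.

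The change from 1 to 3 weeks differed between kidney and spleen for 6 members by the interaction test. The differences, kidney minus spleen on the log2 scale, were 0.92 for Gimap7, 0.81 for Gimap8, 0.66 for Gimap1, 0.52 for Gimap9, 0.44 for Gimap4, and 0.38 for Gimap3. All were above the median of all genes in the same test (0.23). With the number in the library tag as a block Gimap6 passed as well. With DESeq2 size factors or the DESeq2 test, 3 of the 6 passed (Gimap7, Gimap8, and Gimap1), and the calls of Gimap3, Gimap4, and Gimap9 were lost, those of Gimap3 and Gimap4 also with TMM factors and that of Gimap3 also without mitochondrial and ribosomal protein genes.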

How the results depend on the processing

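Leaving out 1 library at a time, 639 of 662 refitted values of called members kept their direction and call, and 23 kept the direction only. The same held for 63 of 63 with one fit, 21 of 21 with stricter gates, 62 of 63 without cells holding a Cd4, B, or Lyz2 UMI, and 78 of 94 with TMM factors. Direction and call were kept by 73 of 94 with the DESeq2 test and 72 of 94 without mitochondrial and ribosomal protein genes. Without the library as a block it was 23 of 31. Plain totals leave the median of all genes away from 0 in several comparisons, and the scaling alternatives centre it. The cause of the other changes was not tested. The counts below are not a full list of the changes, and further lost calls stand with the comparisons above. With TMM factors, the members called were 3 higher (not 5) and 3 lower (not 0) in kidney 3 weeks against 1 week, 1 higher (not 0) and 4 lower (not 7) in kidney 24 weeks against 3 weeks, 3 lower (not 1) in kidney against spleen at 1 week, 1 higher (not 0) and 4 lower (not 7) in kidney against spleen at 24 weeks, 0 higher (not 1) and 6 lower (not 3) in rejecting against accepted kidney, 5 lower (not 2) in rejecting against accepted spleen, and 1 lower (not 0) in NK against CD8 T gate. The log2 difference there was -0.0094 for Gimap7 in kidney 3 weeks against 1 week, -0.14 for Gimap9 in kidney 3 weeks against 1 week, 0.047 for Gimap1 in kidney 24 weeks against 3 weeks, 0.071 for Gimap9 in kidney 24 weeks against 3 weeks, and -0.019 for Gimap6 in NK against CD8 T gate, each opposite in sign to the called value. With DESeq2 size factors in edgeR, the members called were 3 higher (not 5) and 3 lower (not 0) in kidney 3 weeks against 1 week, 1 higher (not 0) and 4 lower (not 7) in kidney 24 weeks against 3 weeks, 2 lower (not 1) in kidney against spleen at 1 week, 1 higher (not 0) in kidney against spleen at 24 weeks, 0 higher (not 1) and 6 lower (not 3) in rejecting against accepted kidney, 5 lower (not 2) in rejecting against accepted spleen, 3 higher (not 6) in the tissue difference in the change, and 1 lower (not 0) in NK against CD8 T gate. The log2 difference there was -0.017 for Gimap7 in kidney 3 weeks against 1 week, -0.15 for Gimap9 in kidney 3 weeks against 1 week, 0.051 for Gimap1 in kidney 24 weeks against 3 weeks, 0.0014 for Gimap8 in kidney 24 weeks against 3 weeks, 0.074 for Gimap9 in kidney 24 weeks against 3 weeks, and -0.0072 for Gimap6 in NK against CD8 T gate, each opposite in sign to the called value. With the DESeq2 test, the members called were 3 higher (not 5) and 3 lower (not 0) in kidney 3 weeks against 1 week, 1 higher (not 0) and 4 lower (not 7) in kidney 24 weeks against 3 weeks, 2 lower (not 1) in kidney against spleen at 1 week, 1 higher (not 0) and 4 lower (not 7) in kidney against spleen at 24 weeks, 0 higher (not 1) and 6 lower (not 3) in rejecting against accepted kidney, 6 lower (not 2) in rejecting against accepted spleen, 3 higher (not 6) in the tissue difference in the change, 0 higher (not 1) in CD8 T against CD4 T gate, 1 lower (not 0) in NK against CD8 T gate, and 0 higher (not 1) and 1 lower (not 2) in the 1-week Gzmb split. The log2 difference there was -0.017 for Gimap7 in kidney 3 weeks against 1 week, -0.15 for Gimap9 in kidney 3 weeks against 1 week, 0.051 for Gimap1 in kidney 24 weeks against 3 weeks, 0.0012 for Gimap8 in kidney 24 weeks against 3 weeks, 0.076 for Gimap9 in kidney 24 weeks against 3 weeks, and -0.0065 for Gimap6 in NK against CD8 T gate, each opposite in sign to the called value. Without mitochondrial and ribosomal protein genes, the members called were 1 lower (not 0) in kidney 3 weeks against 1 week, 1 higher (not 0) and 4 lower (not 7) in kidney 24 weeks against 3 weeks, 1 higher (not 3) and 5 lower (not 1) in kidney against spleen at 1 week, 4 higher (not 7) in kidney against spleen at 3 weeks, 1 higher (not 0) and 3 lower (not 7) in kidney against spleen at 24 weeks, 4 lower (not 2) in rejecting against accepted spleen, 2 lower (not 4) in CD8 T against B gate, 1 lower (not 0) in NK against CD8 T gate, and 0 higher (not 1) in the 1-week Gzmb split. The log2 difference there was 0.011 for Gimap1 in kidney 24 weeks against 3 weeks, 0.035 for Gimap9 in kidney 24 weeks against 3 weeks, -0.012 for Gimap3 in spleen 24 weeks against 3 weeks, -0.052 for Gimap3 in kidney against spleen at 3 weeks, 0.050 for Gimap8 in CD8 T against B gate, and -0.043 for Gimap6 in NK against CD8 T gate, each opposite in sign to the called value. With no filter on low counts, the members called were 1 lower (not 3) in rejecting against accepted kidney and 1 higher (not 0) in rejecting kidney against rejecting spleen. Over all cells of the CD8 matrices, the members called were 3 lower (not 1) in kidney against spleen at 1 week, 1 higher (not 0) in kidney against spleen at 24 weeks, and 0 lower (not 1) in rejecting kidney against rejecting spleen. With one fit over the 9 groups, the members called were 2 lower (not 1) in kidney against spleen at 1 week, 1 higher (not 0) in rejecting against accepted spleen, and 3 higher (not 0) in rejecting kidney against rejecting spleen. With the number in the library tag as a block (chosen after seeing the data), the members called were 2 lower (not 1) in kidney against spleen at 1 week. Without cells holding a UMI of a Cd4, B, NK, or myeloid marker (chosen after seeing the data), the members called were 1 lower (not 3) in rejecting against accepted kidney, 1 lower (not 2) in rejecting against accepted spleen, and 0 lower (not 1) in rejecting kidney against rejecting spleen. Leaving out 1 library at a time gave 0 to 1 lower (not 0) in kidney 3 weeks against 1 week, 1 to 2 lower (not 1) in kidney against spleen at 1 week, 1 to 3 lower (not 3) in rejecting against accepted kidney, 0 to 1 higher (not 0) in rejecting against accepted spleen, 0 to 1 higher (not 0) in rejecting kidney against rejecting spleen, 0 to 1 lower (not 1) in rejecting kidney against rejecting spleen, 0 to 1 higher (not 1) in CD8 T against CD4 T gate, 0 to 2 higher (not 1) in the 1-week Gzmb split, and 1 to 2 lower (not 2) in the 1-week Gzmb split.

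Without the library as a block, the members called were 0 higher (not 1) in CD8 T against CD4 T gate, 3 lower (not 7) in cycling against other cells, and 0 higher (not 1) and 0 lower (not 2) in the 1-week Gzmb split. Kidney and spleen libraries that share a tag number deviated together from their group means at 1 week (the check is given under the processing). In the other comparisons not every correlation was over the limit of 0.1. Whether the numbers are pairs was left undecided there. Over genes, the correlation of same-numbered libraries was 0.045 to 0.33 at 3 weeks, with 8 of 10 libraries correlating best with their own number. At 24 weeks as labelled it was 0.047 to 0.15 (6 of 6), and other numbers reached at most 0.040. In rejecting mice it was -0.0098, with 2 pairs and without R7S1, which has no kidney partner. With the number as a block, the members called as higher and lower were 7 and 1 at 3 weeks, 0 and 7 at 24 weeks as labelled, 0 and 1 in rejecting mice, and 7 and 0 for the tissue difference in the change, and every member called without the block kept its call and direction. The refits without R7K2 or R7K3 leave a single rejecting kidney library, which is assumed to vary like the other group. Members not called with all libraries passed without 1 of them for Gimap6 in rejecting against accepted kidney (R7K2), Gimap8 in kidney against spleen at 1 week (7K1) and in rejecting against accepted spleen (R7S1), Gimap6 in accepted against naive spleen (7S3) and in the tissue difference in the change (7K1 or 7S3), Gimap7 in CD8 T against CD4 T cells (NS1), and Gimap3 and Gimap9 in the 1-week Gzmb split (7K1 and 7K3).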
